A study of Homo sapiens with 6 samples.

Results

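OAS1, OAS2, OAS3, OASL, EIF2AK2, ADAR, MX1, MX2 and RSAD2 encode proteins of the antiviral response to double-stranded RNA and interferon. The genes are called antiviral enzyme genes below, although OASL lacks the enzyme activity of its relatives. They are 9 of the 19871 gene symbols in the mRNA tables of a strand-specific RNA sequencing of HCT116 cells, a human colorectal cancer line. The genes were picked by name, with their difference between GAS5 and control cells already known, so the values of that comparison describe the choice and support nothing by themselves. RNA was sequenced in 3 groups of 2 libraries each. NC is the negative control, GAS5 is the group given a plasmid for the long non-coding RNA GAS5, and siYAP is the group given siRNA against the transcriptional co-activator YAP. The labels file all 3 groups under siRNA, and the sources used here do not say what the NC cells received. A difference between GAS5 and NC therefore cannot be told apart from a difference between plasmid DNA and whatever was transfected into NC. The deposited tables give a single mean per group, so no spread between libraries could be computed and no difference below carries a test.

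Double-stranded RNA in the cytoplasm is a sign of viral infection. The 2′-5′-oligoadenylate synthetases OAS1, OAS2 and OAS3 bind it and make short 2′-5′-linked oligoadenylates (2-5A), which act as a second messenger of the antiviral response. Protein kinase R (PKR), the product of EIF2AK2, binds the same ligand and phosphorylates the translation factor eIF2 alpha, whereas ADAR converts adenosine to inosine in it. MX1 and MX2 are dynamin-like GTPases that trap viral components, and RSAD2 (viperin) makes a chain-terminating nucleotide. All are known interferon-stimulated genes, whose promoters carry an element bound by factors of the STAT and IRF families.

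The core of that element was searched as GAAA, any 2 bases and GAAA, on either strand, from 250 bases before to 50 bases after each start site in RefSeq on GRCh38.p14. The promoter table holds OAS1, OAS3, EIF2AK2, ADAR, MX1 and RSAD2, and lacks OAS2, OASL and MX2. A core lay in 4 of these 6 genes, OAS3, EIF2AK2, MX1 and RSAD2, and in 4.38% of the 27305 genes in the table. Counted by start site, 3.57% of 35116 promoters had a core, and a gene with several start sites has more windows to match. The genes were picked by name and are known interferon-stimulated genes, so nothing is read from these shares. A stricter form, GAAAC, any 1 base and GAAA, lay in OAS3, MX1 and RSAD2 and in 0.94% of genes. With any base as the second letter of the first block, a form added after the data were seen, OAS1 also had a match, as did 9.78% of genes. Windows with matches near start sites are shown so that their letters can be compared. Each window is 30 bases long, is read 5′ to 3′ along the strand of the gene, and has the matched bases in capitals. The OAS1 match, labelled core below like the others, is of the wider form alone.
OAS1, chr12:112906934-112906963, plus strand, core 18 bases upstream: tcccttctgaGGAAACGAAAccaacagcag
OAS3, chr12:112938321-112938350, plus strand, core 143 bases upstream: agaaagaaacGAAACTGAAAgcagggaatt
OAS3, chr12:112938452-112938481, plus strand, core 12 bases upstream: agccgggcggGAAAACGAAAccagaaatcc
EIF2AK2, chr2:37156967-37156996, minus strand, core 6 bases upstream: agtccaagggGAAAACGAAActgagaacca
MX1, chr21:41420559-41420588, plus strand, core 11 bases downstream: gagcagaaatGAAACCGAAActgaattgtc
RSAD2, chr2:6877622-6877651, plus strand, core on the opposite strand 145 bases upstream: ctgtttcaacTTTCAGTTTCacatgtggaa

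The distance is from the start site to the first matched base. OAS3 held its pair of cores on the same strand, and in EIF2AK2 the core reached across the start site. MX1 had a further core on the opposite strand, 196 bases before its most downstream start site at position 41432050. The most upstream RSAD2 start site, at position 6865885, had 4 matches of the wider form, at 153, 119, 85 and 61 bases upstream. They lie within CMPK2 on the opposite strand, and ENST00000442639, the RSAD2 transcript annotated near that start, had 0 counts in every group. No match of any form lay within the windows of the 3 ADAR start sites. A match is a run of letters, and binding was not measured.

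**Figure D1:**
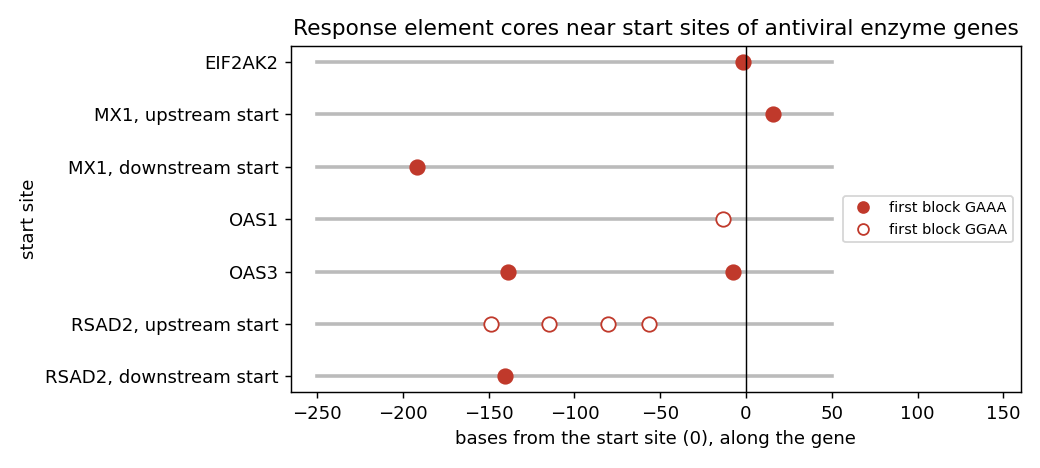
Position of the cores from 250 bases before to 50 bases after each member start site that had a match; the x axis is the distance in bases along the gene, points mark the middle of a match on either strand, and filled points have GAAA as the first block and open points GGAA. The OAS1, OAS3, EIF2AK2 and MX1 matches nearest to a RefSeq start lay within 18 bases of it, and RSAD2 had its 4 open points upstream of its first start.

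Mean counts summed to 27206123 for NC, 25521577 for GAS5 and 26298036 for siYAP. Counts below are the authors' group means summed over the transcripts of a gene, and scaled counts were brought to NC by the TMM method of edgeR, which multiplied GAS5 by 1.09 and siYAP by 1.06. YAP1, the target of the siRNA, had 3480 counts in NC, 2679 in the GAS5 group and 1444 under siYAP, a log2 fold change of -1.18 in siYAP and -0.26 in GAS5. The 8 markers of colon epithelium summed to 3279 FPKM in NC, 3729 in GAS5 and 4329 in siYAP, although VIL1 and LGALS4 stayed under 10 mean counts in every group. Most of the sum was KRT8, KRT18 and KRT19, with log2 fold changes in GAS5 of 0.34, 0.14 and 0.18. CDX2 had 0.28, whereas EPCAM and CDH1 had -0.07 and -0.43. The 5 leukocyte markers summed to 0.165, 0.855 and 0.125 FPKM, with PTPRC at 0 in every group and CD14 at 4.5, 37.5 and 3.0 counts, and the part of this higher sum in the GAS5 results was not tested. Fibroblast markers (4 genes) summed to 2.20, 3.34 and 2.96 FPKM, nearly all of it COL1A1, and endothelial markers (3 genes) to between 0.165 and 0.225 FPKM.

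In the GAS5 group, 8 of the 9 antiviral enzyme genes were at least 2-fold above NC, all but ADAR, and all 9 log2 fold changes were positive. They ranged from 0.50 to 4.93 with a median of 2.58, or 2.23 with the NC count of MX2 set to 3 in place of 0. The median was 0.001 over the 13379 genes that passed the low-count filter. Of those genes, 2.20% were at least 2-fold higher and 0.889% at least 2-fold lower in GAS5, shares given as background from which nothing is read, since the genes were chosen on this contrast. The filter kept 8 of the 9, without MX2. In bulk RNA, a change in every cell and a change in the share of cells that express a gene cannot be told apart. The intervals given below are 95% exact intervals with the mean taken as the count, and cover counting error only. Log2 fold changes were computed with a prior count of 2, which draws those of scarce genes towards 0. Ratios and intervals have no prior count, so a log2 fold change can be smaller than the log2 of the ratio beside it.

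**Figure D2:**
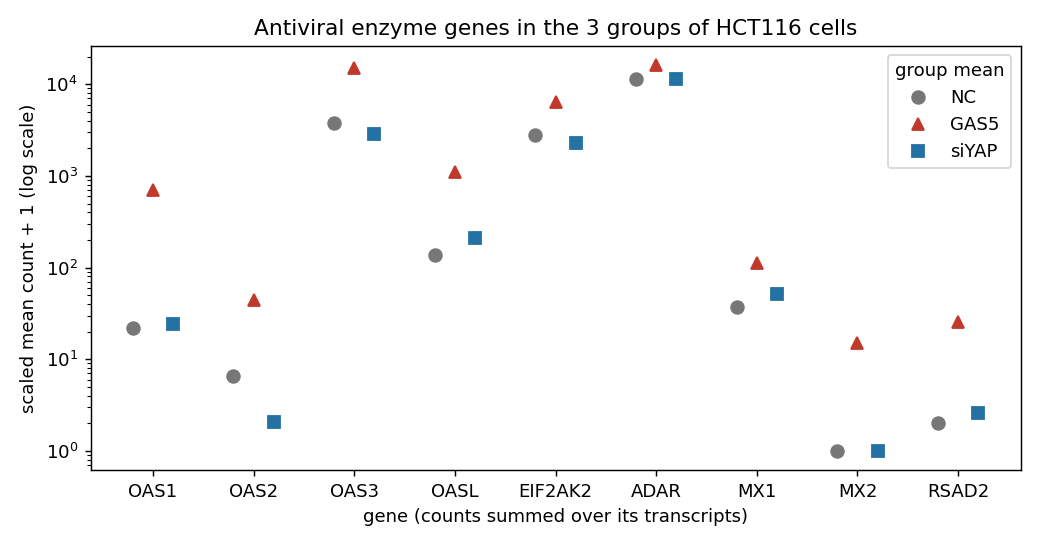
Mean count of each gene in NC (circles), GAS5 (triangles) and siYAP (squares), scaled to NC, with 1 added so that a count of 0 is shown at 1, on a log axis. The GAS5 triangle is the highest point for each of the 9 genes, while NC and siYAP lie close to each other for most.

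Among the synthetases, OAS1 had the widest difference. OAS1 (ENSG00000089127, chr12:112906777-112933222, plus strand, GENCODE 29 on GRCh38) had 21.0 counts in NC, 644.5 in the GAS5 group and 22.0 under siYAP. After scaling, the GAS5 level of 699.5 was 33.3 times the NC level (21.6 to 54.2), a log2 fold change of 4.93. NC and siYAP were level within counting error, with a log2 fold change of 0.14 (-0.78 to 1.09).

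OAS3 makes 2-5A most efficiently on long double-stranded RNA and was the most abundant synthetase. OAS3 (ENSG00000111331, chr12:112938352-112973249, plus strand) had 3753 counts in NC, 13899 in the GAS5 group and 2709 under siYAP. The GAS5 value lay 2.01 above NC on the log2 scale (1.95 to 2.06), a ratio of 4.02. In siYAP it was -0.38 (-0.46 to -0.31), so siYAP lay 1.31-fold below NC, beyond counting error but under 2-fold. OAS2, the middle-sized synthetase, was scarce. OAS2 (ENSG00000111335, chr12:112978395-113011723, plus strand) had 5.5 counts in NC, 40.0 in the GAS5 group and 1.0 under siYAP. GAS5 was 7.89 times NC (3.05 to 20.9), while the ratio of siYAP to NC was 0.193 with an interval from 0.00384 to 1.46, which includes no difference. With summed FPKM in place of counts, the OAS2 log2 fold change in GAS5 was 1.42 rather than 2.58.

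OASL is a relative of the synthetases that lacks their activity and enhances RIG-I signalling. OASL (ENSG00000135114, chr12:121019111-121039242, minus strand) had 137.0 counts in NC, 1025 in the GAS5 group and 199.5 under siYAP. GAS5 exceeded NC by 3.0 on the log2 scale (2.76 to 3.29), a ratio of 8.12. OASL was the gene with the highest positive value in siYAP, 0.62 (0.30 to 0.95), and this was 0.23 when assembled transcripts were left out. The antisense transcript AC004551.1 lies opposite OAS1, OAS2 and OAS3, and whether the counting used the strand of the reads is not given in the sources used here.

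EIF2AK2, which encodes PKR, and ADAR started from high levels and had the smallest differences between GAS5 and NC. EIF2AK2 (ENSG00000055332, chr2:37099210-37157065, minus strand) had 2780 counts in NC, 5835 in the GAS5 group and 2145 under siYAP. GAS5 was 2.28 times NC, a log2 fold change of 1.19 (1.12 to 1.25), and siYAP had -0.29 (-0.37 to -0.21). The siYAP value again lay below NC by more than counting error, 1.22-fold.

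ADAR was the most abundant of the genes in every group. ADAR (ENSG00000160710, chr1:154582057-154628013, minus strand) had 11418 counts in NC, 14850 in the GAS5 group and 10838 under siYAP. On the log2 scale GAS5 exceeded NC by 0.50 (0.46 to 0.53), a ratio of 1.41, and siYAP by 0.01 (-0.03 to 0.05).

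MX1, MX2 and RSAD2 had low counts in NC and siYAP. MX1 (ENSG00000157601, chr21:41420304-41459214, plus strand) had 36.5 counts in NC, 102.0 in the GAS5 group and 48.0 under siYAP. GAS5 was 3.03 times NC (2.08 to 4.63), a log2 fold change of 1.55, and siYAP differed from NC by 0.46 (-0.15 to 1.17), within counting error.

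MX2, the MX protein that acts at the nuclear envelope, was detected in GAS5 alone. MX2 (ENSG00000183486, chr21:41361943-41409390, plus strand) had 0 counts in NC and siYAP and 13.0 in GAS5. With the 0 replaced by a floor of 3 mean counts, the scaled GAS5 mean was 4.70 times NC and 4.39 times siYAP. These values leave out counting error in GAS5. The exact intervals, computed without the floor, began at log2 values of 1.73 against NC and 1.63 against siYAP. RSAD2 (ENSG00000134321, chr2:6865806-6898239, plus strand) had 1.0 count in NC, 22.5 in the GAS5 group and 1.5 under siYAP. The ratio of GAS5 to NC was 24.4, with an interval from 3.86 to 985, and the fitted log2 fold change of 3.10 became 1.65 with summed FPKM and 4.04 with a prior count of 0.5. The start of RSAD2 overlaps CMPK2 on the opposite strand over 830 bases.

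**Figure D3:**
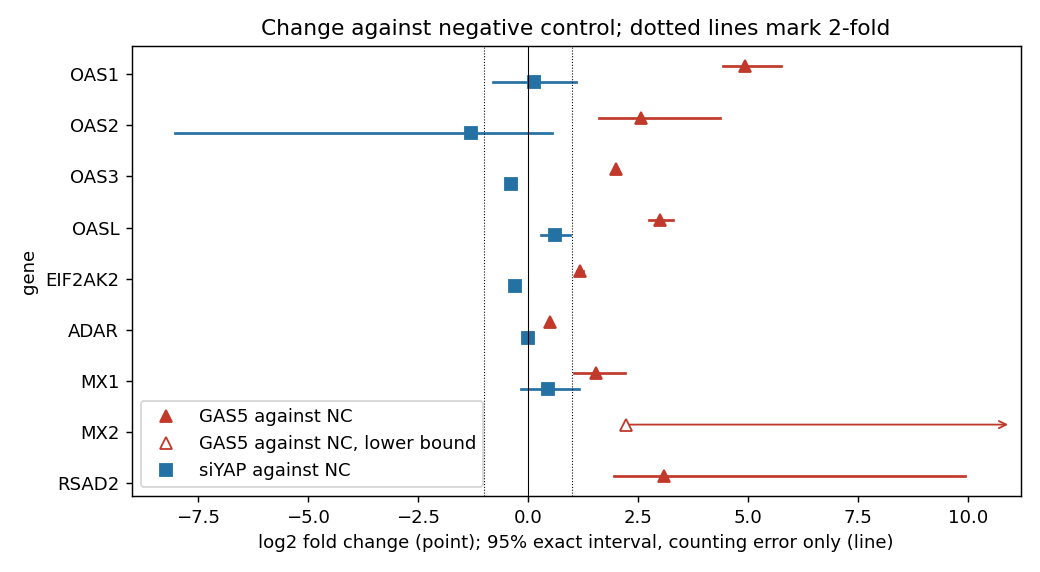
Log2 fold change against NC for GAS5 (triangles) and siYAP (squares), with 95% exact intervals that cover counting error only. The open triangle with an arrow, labelled lower bound, is MX2 at 2.23 against a floor of 3 mean counts. That value leaves out counting error. Dotted lines mark 2-fold, and siYAP has no point for MX2 and RSAD2. Every triangle but that of ADAR lies beyond 2-fold, and the OAS2 square at -1.28 has an interval that crosses 0. Filled points were computed with a prior count of 2 and intervals without one.

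The siYAP group was set against NC in the same way. Because the genes were chosen on GAS5 against NC, nothing is read from how the siYAP values differ from the GAS5 values. The siYAP comparison could be given for 7 of the 9 genes, because MX2 and RSAD2 were at or under the floor in both groups. Of these, none was at least 2-fold higher and OAS2 was at least 2-fold lower, where 1.05% of the 13308 genes that passed the filter were higher and 1.21% lower. OAS2 itself did not pass that filter, and by summed FPKM it was not past 2-fold. The log2 fold changes ranged from -1.28 to 0.62 with a median of 0.01, with 4 above and 3 below 0, of which OAS1 moved to -0.18 by summed FPKM and ADAR to -0.03 by total counts or summed FPKM. OASL and MX1 were the highest, and OAS2, OAS3 and EIF2AK2 were below 0.

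Both comparisons share the NC libraries, so GAS5 was also set against siYAP directly. Again 8 of the 9 genes were at least 2-fold higher in GAS5 and ADAR was not, where 2.64% of 13386 genes were higher. Since the GAS5 libraries are those on which the genes were chosen, nothing is read from this share either. The log2 fold change was 4.77 for OAS1, 2.38 for OAS3, 2.37 for OASL and 1.46 for EIF2AK2. ADAR differed by 0.47 (0.44 to 0.51). MX1 differed by 1.07 (0.60 to 1.63), which was 0.74 by summed FPKM and so no longer past 2-fold. OAS2 was 40.5 times its siYAP level with an interval from 6.86 to 1639, and RSAD2 15.2 times with an interval from 2.74 to 97.7, both over 1 to 2 counts in siYAP.

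Levels were compared between genes in summed FPKM, which is per length. In NC the order was ADAR at 74.2, EIF2AK2 at 23.1, OAS3 at 21.0, OASL at 2.21, OAS1 at 0.55, MX1 at 0.38, OAS2 at 0.085, RSAD2 at 0.01 and MX2 at 0. In GAS5 it was ADAR at 101.8, OAS3 at 83.1, EIF2AK2 at 54.7, OASL at 20.8, OAS1 at 14.7, MX1 at 1.14, OAS2 at 0.395, RSAD2 at 0.245 and MX2 at 0.24. OAS3 thus stood above EIF2AK2 in GAS5, and below it in NC and siYAP. In siYAP ADAR had 72.8, EIF2AK2 20.1, OAS3 15.7, OASL 3.93, MX1 0.64, OAS1 0.475, RSAD2 0.015, OAS2 0.01 and MX2 0. With a single mean per group, it cannot be said which neighbours in these orders differ beyond the spread of libraries.

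The tables hold 56 transcripts of these genes, 48 with an Ensembl identifier and 8 assembled by the authors from the reads, of which 12 were listed at 0 in every group. After the filter, 25 remained in the comparison of GAS5 with NC, and 21 of them were at least 2-fold higher and 0 lower. Some passed the filter through the GAS5 group alone, such as RSAD2 ENST00000382040 with 0 counts in NC and 22.5 in GAS5. Their direction was thereby fixed, and nothing is read from these numbers. The share of all 41340 transcripts at least 2-fold higher was 10.7%, and it too is background only. How reads were divided among the overlapping transcripts of a gene was estimated by the authors' counting tool, so a value for a transcript is less certain than a gene sum.

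ADAR has a pair of well-known forms, the long p150, which is interferon-inducible and reaches the cytoplasm, and the shorter p110, which is nuclear and made constitutively from another promoter. ENST00000368474, which encodes 1226 residues as p150 does and starts at position 154608186, had 1587 counts in NC, 3512 in the GAS5 group and 1468 under siYAP. ENST00000368471, which encodes 931 residues as p110 does and starts at position 154627968, had 3788 counts in NC, 3207 in the GAS5 group and 3755 under siYAP. After scaling, the long form differed by a log2 fold change of 1.26 in GAS5 (1.18 to 1.35) and the short form by -0.12 (-0.19 to -0.05). In siYAP the values were -0.03 for the long form and 0.07 for the short.

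The long form therefore took 29.5% of the counts of both in NC (exact interval 28.3 to 30.8), 52.3% in GAS5 (51.1 to 53.5) and 28.1% in siYAP (26.9 to 29.4). The GAS5 interval did not overlap the others, but intervals for single transcripts take each estimated count as reads known to belong to that transcript. They leave out the error of dividing shared reads and are too narrow, so nothing is read from the lack of overlap. With ENST00000529168, described next, also counted as long, a choice made after the data were seen, the shares were 51.2% in NC (50.1 to 52.3), 66.9% in GAS5 (65.9 to 67.8) and 49.8% in siYAP (48.7 to 50.9). The whole-gene value of 0.50 thus held a transcript past 2-fold beside another slightly below NC. The shares of the first pair rest on little sequence, since 204 stretches of 50 bases occur in the long transcript and not in the short, and 113 the other way. ENST00000529168, which starts at position 154608170, had 2388, 2967 and 2257 counts, a log2 fold change of 0.43 in GAS5. The annotation gives it 1200 residues, but its counts and FPKM imply a length of 3666 bases where GENCODE 29 has 6343, so the model the authors counted may not be the annotated one. The assembled ADAR transcript had 3654, 5164 and 3357 counts, a log2 fold change of 0.62 in GAS5. It was counted in neither form above, though it held 32.0%, 34.8% and 31.0% of the ADAR counts in NC, GAS5 and siYAP.

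**Figure D4:**
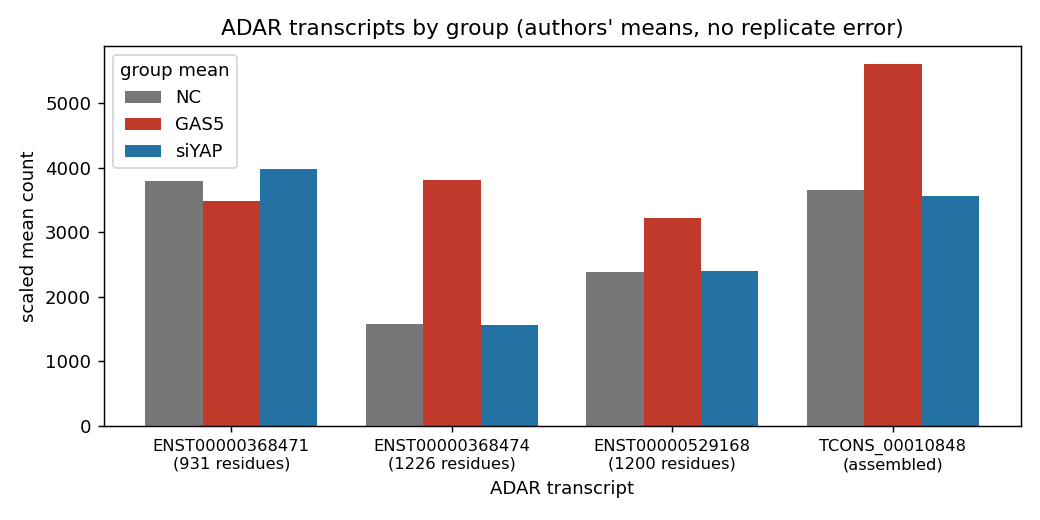
Scaled mean counts of the 4 ADAR transcripts in NC, GAS5 and siYAP; bars are the authors' means of 2 libraries and have no error. The 1226-residue transcript has its GAS5 bar at 3812 beside 1587 in NC, and the 931-residue transcript has 3480 beside 3788.

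OAS1 is spliced to proteins that differ at their C-terminus. The 400-residue form, known as p46, ends in a prenylation signal that takes it to membranes, and its transcript ENST00000202917 had 3.19 counts in NC, 235 in the GAS5 group and 10.4 under siYAP. ENST00000452357, the 364-residue form known as p42, had 7.26, 209 and 7.58 counts. In GAS5 these made up 36.5% and 32.4% of OAS1. An assembled transcript had 0 counts in NC and siYAP and 80.3 in GAS5, ENST00000445409 (414 residues) had 3.84, 63.5 and 0, and ENST00000551241 (360 residues) had 0, 13.3 and 1.72. ENST00000553152, whose coding region is incomplete, had 5.50, 33.7 and 2.00 counts. Among forms with counts in NC, the log2 fold change in GAS5 was 5.61 for ENST00000202917 (4.84 to 8.70) and 2.35 for ENST00000553152 (1.35 to 4.16), over 3.19 and 5.50 counts in NC. The intervals did not overlap, but they too leave out the error of dividing shared reads.

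In the other genes the main protein-coding transcript carried most of the GAS5 counts or shared them with an assembled one. The main transcripts of OAS2 and RSAD2 were at 0 in NC and siYAP. For OAS3, ENST00000228928 (1087 residues) had 3196, 11099 and 2353 counts in NC, GAS5 and siYAP, the assembled transcript 530, 2700 and 337, and ENST00000551007 (177 residues) 13.3, 55.9 and 10.5. OASL divided its counts between ENST00000257570 (514 residues), with 94.0, 483 and 89.7, and an assembled transcript with 27.9, 415 and 78.4. The 255-residue OASL form, ENST00000339275, had 12.6, 93.6 and 19.8 counts. In EIF2AK2, whose 551-residue product is full-length PKR, ENST00000233057 had 1495, 3596 and 1032 counts, ENST00000405334 (510 residues) 347, 835 and 332, ENST00000395127 (551 residues) 393, 740 and 312, and the assembled transcript 465, 475 and 402. The Ensembl transcripts of EIF2AK2 thus lay above NC in GAS5 while the assembled one, with a log2 fold change of 0.15, lay close to it. In NC and GAS5 the MX1 counts were almost wholly those of ENST00000398600 (662 residues), with 36.5, 99.6 and 36.3 counts, which starts close to the RefSeq start whose core is printed above. In siYAP it held 75.5% of MX1, and ENST00000398598 (662 residues) and ENST00000619682 (508 residues), both at 0 in NC and GAS5, had 5.62 and 3.66 counts. The OAS2 counts of GAS5 were mostly ENST00000392583 (687 residues), with 0, 23.8 and 0, beside ENST00000449768 (172 residues), with 3.0, 6.12 and 0, and an assembled transcript with 0.50, 7.50 and 1.00. All RSAD2 counts of GAS5 were in ENST00000382040 (361 residues), which had 0, 22.5 and 0, and the few of NC and siYAP were in an assembled transcript, with ENST00000442639 at 0 in every group. For MX2, the assembled transcript had 6.79 counts in GAS5, ENST00000330714 (715 residues) 4.66 and ENST00000436410, whose coding region is incomplete, 1.56.

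Partners of these enzymes were followed in a list of 37 genes, all present in the tables, 34 of which passed the filter. In GAS5, 2 of them were at least 2-fold higher than NC and 0 lower, where 2.20% of all genes that passed the filter were higher and 0.889% lower. The list was made with earlier results known, so nothing is read from this count. The median log2 fold change of the partners was -0.05, with a range from -0.61 to 3.19. The 2 higher genes, IFIH1 and CMPK2, are interferon-stimulated genes themselves. IFIH1, the cytoplasmic double-stranded RNA sensor MDA5, had 236 counts in NC, 930 in the GAS5 group and 188 under siYAP, a log2 fold change of 2.09 in GAS5 (1.89 to 2.31) and -0.24 in siYAP. CMPK2, a mitochondrial nucleotide kinase encoded beside RSAD2, had 25, 225.5 and 27.5 counts, with 3.19 in GAS5 (2.70 to 3.95) and 0.21 in siYAP.

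The other partners stayed within 2-fold of NC. The 3 genes of the 2-5A branch had log2 fold changes from -0.44 to 0.25 in GAS5. The 15 genes around eIF2 alpha ranged from -0.61 to 0.35. The other eIF2 alpha kinases in it, EIF2AK1, EIF2AK3 and EIF2AK4, had -0.11, -0.06 and 0.03, and DDIT3, the stress factor also called CHOP, had the lowest value of -0.61. ADARB1, the other catalytically active adenosine deaminase of this family, had 529, 461 and 608 counts and a log2 fold change of -0.08. ADAD1 and ZBP1 were at 0 in every group and ADARB2 had 1.0 count in siYAP alone, and these 3 are named after their values were seen. The 5 genes listed for MX ranged from -0.17 to 0.60. In siYAP none of the 34 was past 2-fold in either direction, where 1.05% of all genes that passed the filter were higher and 1.21% lower. The median in siYAP was -0.06, with a range from -0.46 to 0.49.

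**Figure D5:**
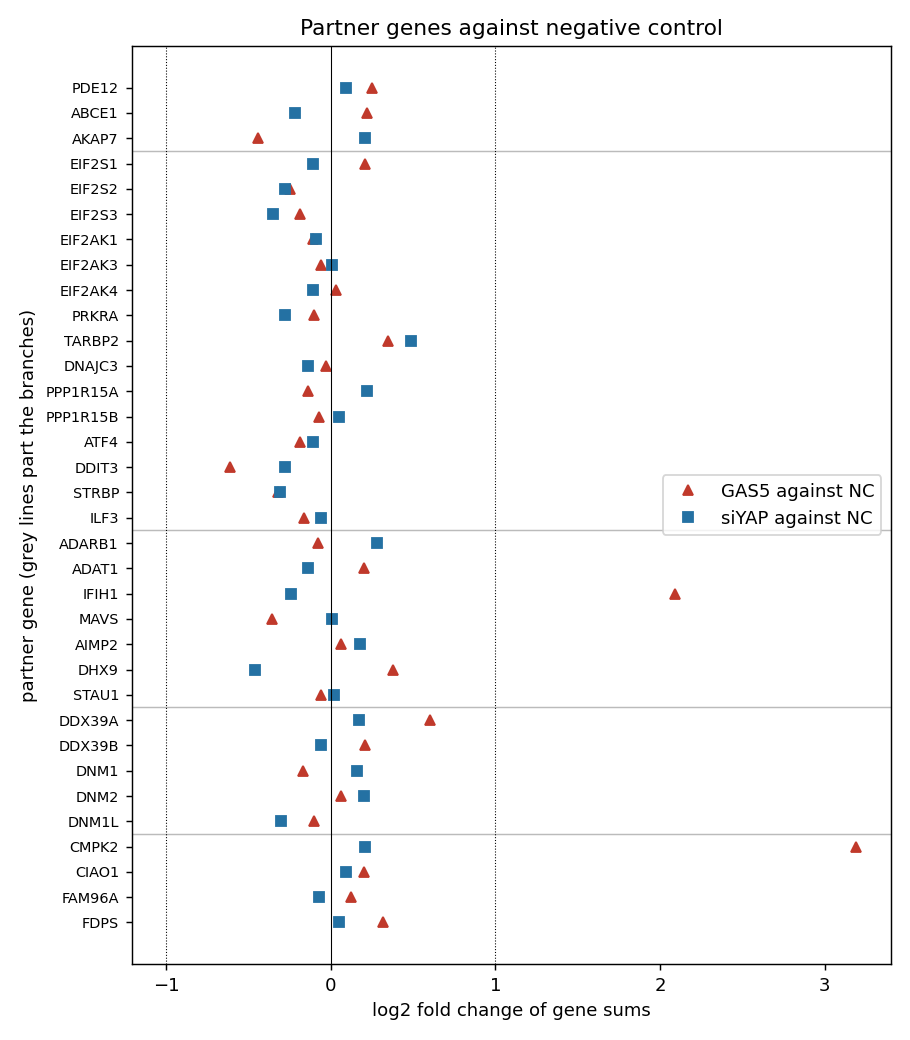
Log2 fold change against NC of the 34 partner genes that passed the filter, in GAS5 (triangles) and siYAP (squares), grouped by branch between grey lines, with dotted lines at 2-fold. IFIH1 at 2.09 and CMPK2 at 3.19 are the only triangles beyond 2-fold.

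The genes whose pair of log2 fold changes (GAS5, siYAP) lay nearest to the median pair of the antiviral enzymes, 2.58 and 0.01, were sought among 11901 other genes whose mean count was 50 or more. The likeness is the Euclidean distance over 3 group means, and it is a description. NMNAT3, an enzyme of mitochondrial NAD synthesis, was nearest at 2.56 and 0.05, a distance of 0.05. It was followed by PARP10, a mono-ADP-ribosyltransferase, at 2.53 and -0.29, and by IRF7, a transcription factor of the interferon response, at 2.32 and 0.31. ISG15, a ubiquitin-like modifier, had 2.89 and 0.31, and SAMD9, a cytoplasmic antiviral protein, 2.17 and -0.24.

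Nearly all of the sequence of these genes was found in no other gene. Of the stretches of 50 bases in a main transcript, 100% occurred in no other gene for OAS1, OAS2, OAS3, OASL and ADAR, and between 99.02% and 99.86% for the others. MX1 and MX2 shared stretches with each other. On the opposite strand, EIF2AK2 overlaps the pseudogene AC007899.1 over 775 bases and GPATCH11 over 35 bases, and MX1 overlaps the antisense transcript AP001610.1 over 4653 bases.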

How the data were processed

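RNA of HCT116 cells was sequenced as strand-specific libraries, 2 each for NC, GAS5 and siYAP, and the replicate labels do not state separate cultures. The expected counts per mRNA transcript were deposited by the authors as group means without further normalization, and every value was a multiple of 0.005. The deposited FPKM values were scaled by transcript length and library size by the authors and averaged likewise, with 0.001 for 0. TopHat2 2.1.1 is listed in the submitters' processing notes, and the counting tool and genome build are not given in the sources used here. The tables also hold the authors' fold change, p-value, FDR and call for each transcript, which were not used.

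Counts were summed by symbol without rounding, leaving out 339 of 92866 transcripts with no symbol. Of the 27 gene sums described for the antiviral enzymes, 100% lay within 0.03 of a multiple of 0.5, as for a mean of 2 whole numbers, beside 89.56% of the 46812 gene sums above 0. Sums were scaled by TMM, filtered by filterByExpr (minimum count 10) and compared with a prior count of 2 in edgeR 4.0.16 under R 4.3.3, on pairs of group means. The planned edgeR quasi-likelihood test needs libraries and was not run. Intervals are Clopper-Pearson intervals from scipy 1.17.1, wider than those for the total of 2 libraries. A gene at 0 was compared with a floor of 3 mean counts, and no fold was given where both groups were at or under it. The scaling was tested on simulated data. Alternatives were DESeq2 1.42.0 size factors, total counts, no filter, a prior count of 0.5, summed FPKM (pseudocount 0.1) and Ensembl transcripts alone.

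Gene coordinates and protein lengths come from GENCODE 29, which holds 99.9% of the Ensembl transcripts, and promoters from RefSeq. Named were all 9 antiviral enzymes, partners past 2-fold and up to 6 others (with 3 more at or near 0, named after their values were seen), the 5 genes of nearest pattern, YAP1, the 3 most abundant transcripts of each enzyme gene, and for ADAR and OAS1 all coding transcripts with at least 10 counts in a group. The genes, partner and marker lists were chosen with earlier results of these data known. A partner gene of the list is not reported here. Long non-coding transcripts, GAS5 included, are not analysed here.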

Additional observations from a re-analysis of the deposited data

How the results depend on the processing

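Of 54 values of single genes in GAS5 against NC under the alternatives, 47 stayed within the counting interval and 0 changed sign, and in GAS5 against siYAP 50 of 54 stayed within it and 0 changed sign. In siYAP against NC 39 of 42 stayed within it, and 3 had the other sign, none of them past 2-fold (OAS1 by summed FPKM, ADAR by total counts and summed FPKM). With the ratio of summed FPKM, the count of genes past 2-fold in siYAP against NC was 0 instead of 1, and the median log2 fold change was -0.18 instead of 0.01. The count changed because OAS2 moved from -1.28 to -0.75, and the pseudocount of 0.1 exceeds its FPKM in NC and siYAP. The median by summed FPKM was the value of OAS1, which moved from 0.14 to -0.18. Why these values moved was not tested. The median in GAS5 against NC ran from 1.65 (summed FPKM) to 2.87 (prior count of 0.5). The same alternatives for the partner genes and the ADAR transcripts, chosen after the data were seen, left 2 partners past 2-fold in GAS5 and 0 in siYAP, and gave 1.21 to 1.26 for the 1226-residue and -0.15 to -0.12 for the 931-residue transcript. With all longer annotated forms of ADAR counted as long, their share was 51.2% (NC), 66.9% (GAS5) and 49.8% (siYAP), instead of 29.5%, 52.3% and 28.1%. No paired analysis was possible because libraries were averaged within each group, and for the same reason no library could be left out and neither the edgeR nor the DESeq2 test was run. OAS2, MX1, MX2 and RSAD2 are limited by their low counts.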
